A study of Mus musculus with 27 samples.

Results

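Triglyceride synthesis and glycerol supply was followed through 10 genes in C2C12 cells, an established line of mouse myoblasts that fuses into muscle fibers: Gpam, Agpat2, Lpin1, Lpin2, Lpin3, Dgat1, Dgat2, Gpd1, Pck1 and Aqp7. They were found by their symbols among the 24825 genes of the deposited expression files, and each of the 10 was listed for every sample, Pck1 and Aqp7 at 0 in 12 and 10 of the 27. RNA-seq of polyadenylated RNA had been performed in cells carrying a control retroviral vector, cells expressing 3xFLAG-tagged full-length NFIA (nuclear factor I-A, a transcription factor of brown adipocytes) and cells expressing the Δpro#3 mutant, which lacks the C-terminal residues called pro#3. Each kind of cell was sampled at day 0 before induction, at day 7, and at day 7 after 4 h with 10 µM forskolin, an activator of adenylyl cyclase that raises cyclic AMP. Each of the 9 groups had 3 replicates. All day 7 groups, control cells included, had received the adipogenic mixture of isobutylmethylxanthine, indomethacin, dexamethasone, insulin and T3 with 1 µM rosiglitazone, a ligand of PPARγ. The introduced genes were driven by the virus in a myoblast line, and nothing in the labels says whether replicates came from separate infections or cultures, so the p-values measure only the spread between these samples, which may be technical.

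Triglyceride is built on glycerol-3-phosphate. Glycerol-3-phosphate acyltransferases and 1-acylglycerol-3-phosphate acyltransferases add the first fatty acids, the lipins remove the phosphate to give diacylglycerol, and the diacylglycerol acyltransferases DGAT1 and DGAT2 add the last fatty acid. White fat cells make little use of free glycerol for this and draw glycerol-3-phosphate from glycolysis through GPD1 or from pyruvate through PEPCK (Pck1), whereas glycerol freed by lipolysis leaves the cell through the channel aquaporin 7 (Aqp7).

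The files hold FPKM, the fragments of a gene scaled by its length and by the fragments of the sample, so levels can be compared between genes. Worked back from these values, each sample held 9567769 to 27230965 fragments, with a median of 17707223. In each of the 27 pairs of replicates the fragments differed by more than counting noise, with a chi-squared value per gene of 1.52 to 14.2. Nfia itself was at 0.0885 to 0.253 FPKM in control cells at day 7, at 457 to 528 FPKM with full-length NFIA and at 374 to 480 FPKM with the mutant. The 2 constructs were less alike at the other times: at day 0 Nfia was at 225 to 250.2 FPKM with full-length NFIA and 397 to 423 FPKM with the mutant (adjusted p = 0.244), and after forskolin at 497 to 594 and 262 to 344 FPKM (log2 -0.88 for the mutant minus full-length NFIA, adjusted p = 1.85e-05). The part of these levels in differences between the constructs was not tested. Among control cells at day 0, replicate 2 stood apart with 7.35 FPKM of Nfia against 0.879 and 0.175 FPKM. This control spread enters the day 0 p-value of 0.244 between the constructs, whose samples did not overlap, as the fit pooled all 3 groups. The summed level of 8 adipocyte markers (Fabp4, Plin1, Cidec, Adipoq, Cd36, Lpl, Cfd and Retn) at day 7 was 345 to 385 FPKM in control cells, 13564 to 15074 FPKM with full-length NFIA and 617 to 2044 FPKM with the mutant. The 8 myotube markers (Acta1, Mylpf, Ckm, Myh3, Tnnt3, Atp2a1, Myog and Des) summed to 10476 to 12134, 1814 to 2450 and 11940 to 12412 FPKM in the same order. The highest mutant value of the adipocyte markers, 2044 FPKM, belonged to replicate 1, against 617 and 732 FPKM in replicates 2 and 3, and differences of the mutant from control at day 7 and after forskolin are therefore also given without it where they passed the test as higher. Of 7 markers of blood, endothelial, epithelial and liver cells only Cd68 passed the filter on low values, at 10.4 FPKM with full-length NFIA and 15.6 FPKM in control cells at day 7. The defining markers Ptprc and Adgre1 were at or near 0. With full-length NFIA against control at day 7, all 8 adipocyte markers were called higher, where 4.87% of all genes were, and 7 of the 8 myotube markers called lower, where 3.3% were. With the mutant against control at day 7, 8 adipocyte and 3 myotube markers were higher at adjusted p, where 21.3% of all genes were, and 2 myotube markers lower, where 27.5% were. After forskolin 2 adipocyte and 5 myotube markers differed at adjusted p, where 46.6% of all genes did. The part of these cell types in the levels of the 10 genes was not tested.

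Upstream sequence was held for 7 of the 10 genes (12 start sites, mouse assembly GRCm38.p6, RefSeq). Dgat1, Dgat2 and Gpd1 were not among them. The windows of Pck1 and Gpam are shown because these genes moved in opposite directions with forskolin in full-length NFIA-expressing cells, and those of Agpat2 and Lpin1 because both were called higher with full-length NFIA. Gpam has 2 windows, and the one shown is the one with the half-sites marked here. Each window is the 250 bases before the start site, written 5′ to 3′ on the strand of the gene, and capitals mark TGACG on either strand (read as CGTCA on the reverse strand), the half-site of the cyclic AMP response element TGACGTCA.
Pck1: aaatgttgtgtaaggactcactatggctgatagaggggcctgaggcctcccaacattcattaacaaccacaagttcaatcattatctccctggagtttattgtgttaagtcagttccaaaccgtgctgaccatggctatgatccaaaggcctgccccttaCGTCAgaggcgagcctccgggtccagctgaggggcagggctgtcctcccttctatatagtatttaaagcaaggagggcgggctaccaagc
Gpam: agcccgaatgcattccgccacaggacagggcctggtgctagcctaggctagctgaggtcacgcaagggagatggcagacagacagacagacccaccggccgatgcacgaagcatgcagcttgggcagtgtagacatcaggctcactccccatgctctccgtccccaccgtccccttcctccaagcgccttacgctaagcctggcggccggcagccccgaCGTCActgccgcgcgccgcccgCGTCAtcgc
Agpat2: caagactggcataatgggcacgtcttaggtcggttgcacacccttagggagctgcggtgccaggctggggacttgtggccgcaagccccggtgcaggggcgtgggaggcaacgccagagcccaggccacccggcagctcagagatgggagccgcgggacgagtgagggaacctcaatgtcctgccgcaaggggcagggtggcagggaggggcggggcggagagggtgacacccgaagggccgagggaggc
Lpin1: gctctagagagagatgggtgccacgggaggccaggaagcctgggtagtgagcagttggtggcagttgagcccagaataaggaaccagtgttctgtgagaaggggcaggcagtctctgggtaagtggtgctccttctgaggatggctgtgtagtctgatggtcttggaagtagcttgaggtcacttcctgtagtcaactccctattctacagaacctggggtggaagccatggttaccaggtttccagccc

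These windows are chr2:173152823-173153072 (forward strand) for Pck1, chr19:55099478-55099727 (reverse strand) for the second start of Gpam, chr2:26604418-26604667 (reverse strand) for Agpat2 and chr12:16610967-16611216 (reverse strand) for Lpin1. The Pck1 window held 1 half-site, at -90 to -86 from the start, and the Gpam window held 2, at -31 to -27 and at -9 to -5. The first window of Gpam, not shown, held none. Pck1 is a classic gene of the cyclic AMP response in liver. Among the remaining windows, only the first of Lpin2 held the half-site (1 match), which occurs in 17.8% of the 32851 mouse windows of this length. None of the 12 windows held the complete element TGACGTCA (1.55% of all windows) or the palindrome of NFI factors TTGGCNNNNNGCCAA (0.0365%). The NFI half-site TTGGC, found in 41.5% of all windows on either strand, was present in the first window of Gpam (2 matches), the third of Lpin2 (1) and both of Aqp7 (1 and 2). The nuclear receptor half-site AGGTCA, found in 14% of all windows, was present in Gpam, Lpin1 and Aqp7. These matches are a description of the letters and not of binding.

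Over the 9 groups the widest range was that of Gpd1, with group means from 0.260 to 888 FPKM, and the narrowest that of Lpin2, from 5.65 to 12.8 FPKM. The highest group was full-length NFIA at day 7 for Gpam, Agpat2, Dgat2, Gpd1 and Aqp7, and full-length NFIA after forskolin for Lpin1, Dgat1 and Pck1. Lpin2 and Lpin3 had their highest means in control cells, at day 0 and at day 7.

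**Figure D1:**
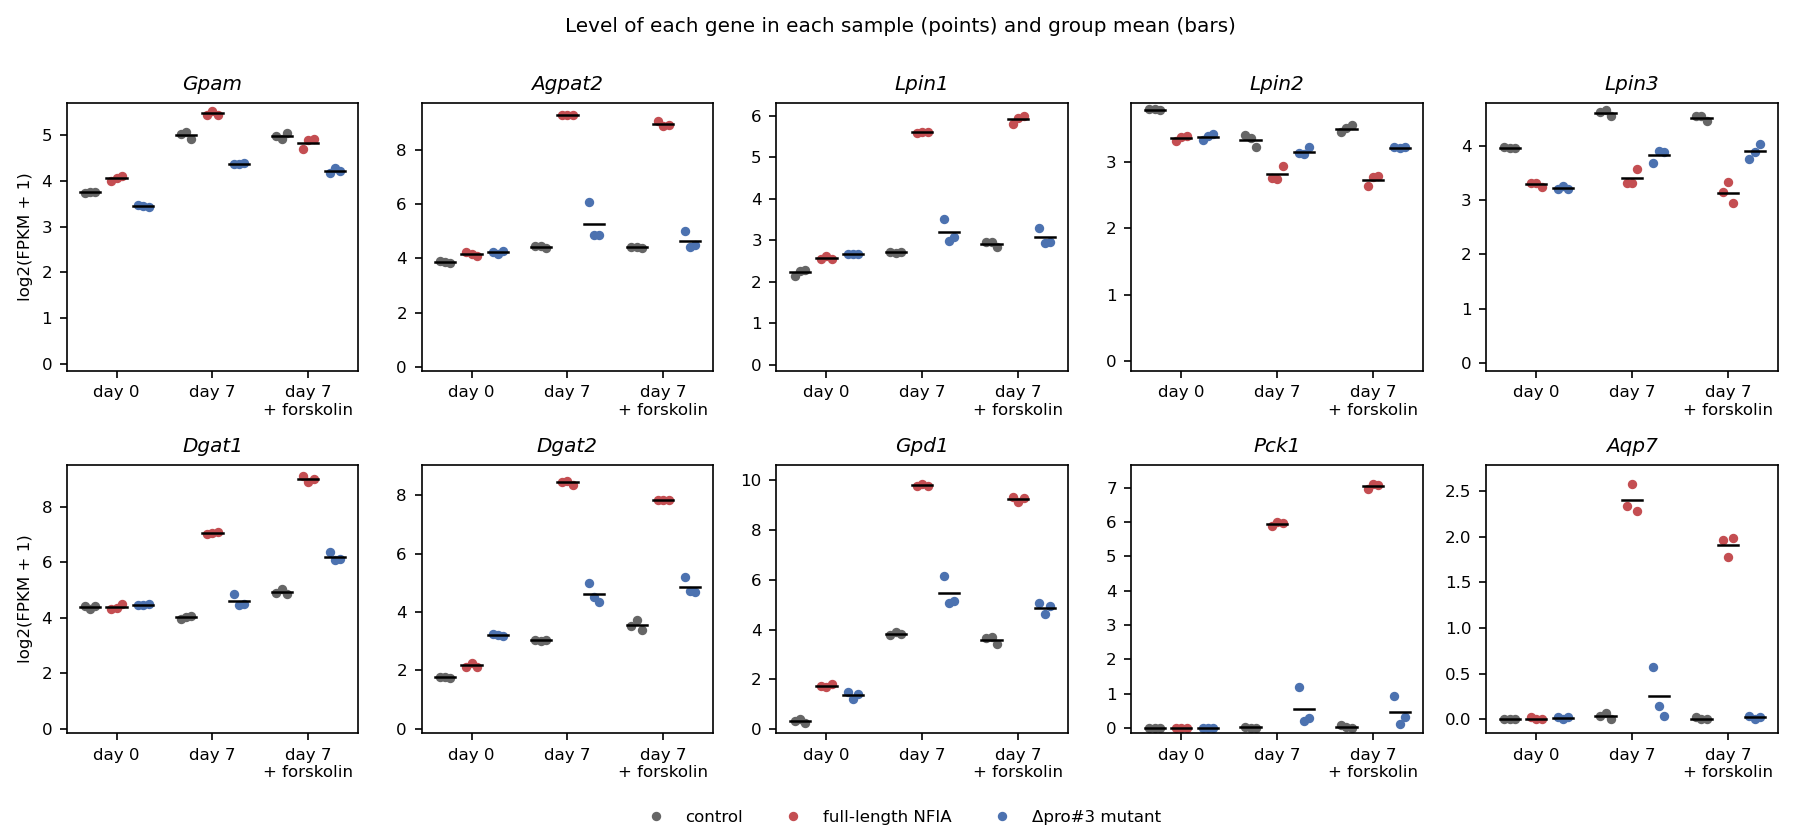
Level of each of the 10 genes as log2(FPKM + 1), with 1 panel per gene (each with its own vertical scale), 1 point per sample and a bar at the mean of the 3 replicates, for the 3 kinds of cells (control vector, full-length NFIA, Δpro#3) at day 0, day 7 and day 7 with forskolin. The full-length NFIA points stand far above the other cells at day 7 for 7 genes, whereas Lpin2 and Lpin3 are highest in control cells, at group means of 12.8 and 23.6 FPKM.

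Expression was compared by limma on log2(FPKM + 1), and a gene is said to be higher or lower where its adjusted p-value (Benjamini-Hochberg over all genes tested) was under 0.05. It is said to be called where its FPKM + 1 also changed more than 3-fold. Fold changes are those of FPKM + 1, in which the change of low genes appears smaller than it is, so that a difference between the changes of 2 kinds of cells can appear larger or turn in sign. In these bulk samples, fewer cells of a type and less RNA per cell cannot be told apart.

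Gpam, the mitochondrial glycerol-3-phosphate acyltransferase (chromosome 19 from 55142142 to 55201824, reverse strand, mouse build mm9, as for the positions that follow), was at day 7 the member with the smallest change with full-length NFIA in either direction. Its levels were 31.6, 32.5 and 29.2 FPKM in control cells, 42.3, 45.4 and 42.6 FPKM with full-length NFIA and 19.5, 19.5 and 19.9 FPKM with the mutant. The 3 groups did not overlap: Gpam was 1.38-fold higher with full-length NFIA (log2 0.47 ± 0.05 SE, adjusted p = 2.08e-05) and 1.56-fold lower with the mutant (log2 -0.64 ± 0.05, adjusted p = 1.24e-05) than in control cells. The same opposite directions were seen at day 0, where Gpam had 12.5 ± 0.153 FPKM in control cells, 15.6 ± 0.675 FPKM with full-length NFIA and 9.89 ± 0.176 FPKM with the mutant (SD, n = 3). Among the 4 glycerol-3-phosphate acyltransferase genes, Gpam made up 45.9% ± 1.62 of the summed FPKM in control cells at day 7 and 33.4% ± 0.504 with full-length NFIA (SD, n = 3), where Gpat3, the enzyme of the endoplasmic reticulum prominent in fat, made up 33.8% ± 0.849 against 5.70% ± 0.346.

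Agpat2, the acyltransferase of the next step, whose loss causes congenital lipodystrophy (chromosome 2 from 26448577 to 26459937, reverse strand), had the highest level of the acyltransferase genes in full-length NFIA-expressing cells at day 7 without forskolin, though not in control cells. In full-length NFIA-expressing cells at day 7 it was at 618, 621 and 632 FPKM, against 20.9, 21.1 and 19.7 FPKM in control cells, a 29.0-fold change (log2 4.86 ± 0.26, adjusted p = 7.22e-08). The mutant samples lay between, at 66.7, 27.8 and 28.2 FPKM, all above the control samples. The mutant mean was 1.79-fold above control (adjusted p = 0.0238), and without mutant replicate 1 the log2 change fell from 0.84 to 0.43 (adjusted p = 0.000122). Leaving out any 1 of the control replicates instead gave adjusted p-values of 0.0530 to 0.0661. Agpat2 accounted for 12.6% ± 0.450 of the summed FPKM of Agpat1 to Agpat5 in control cells at day 7, for 74.4% ± 0.247 with full-length NFIA and for 23.5% ± 9.27 with the mutant (SD, n = 3). The mutant samples were at 34.2%, 18.1% and 18.2%, so that replicate 1 set most of this spread. On the opposite strand of Agpat2 the annotation places 64 bases of Egfl7 and, over all 11361 bases of the gene, Gm20532, not analysed here. Counting by strand keeps them apart.

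The lipins, phosphatidate phosphatases of which lipin 1 is the main form of adipose tissue and muscle, moved in opposite directions. Lpin1 (chromosome 12 from 16542475 to 16596576, reverse strand) had 5.54, 5.45 and 5.57 FPKM in control cells at day 7, 46.9, 47.6 and 47.7 FPKM with full-length NFIA and 10.4, 6.84 and 7.42 FPKM with the mutant. It was 7.42-fold higher with full-length NFIA than in control cells (log2 2.89 ± 0.11, adjusted p = 8.13e-09) and also higher with the mutant (log2 0.48 ± 0.11, adjusted p = 0.00628, and 0.32 without mutant replicate 1). Lpin3 (chromosome 2 from 160706406 to 160731738, forward strand) was lower, with 23.9, 24.4 and 22.6 FPKM in control cells, 9.02, 9.01 and 11.0 FPKM with full-length NFIA and 11.97, 14.0 and 13.8 FPKM with the mutant. None of these 3 groups overlapped, and Lpin3 was 2.32-fold lower with full-length NFIA (adjusted p = 5.07e-07) and 1.73-fold lower with the mutant (adjusted p = 5.73e-05) than in control cells. Lpin2 (chromosome 17 from 71531900 to 71599157, forward strand) was 1.43-fold lower with full-length NFIA (6.03 ± 0.530 against 9.06 ± 0.598 FPKM, SD, n = 3, adjusted p = 0.00011), and its difference with the mutant did not pass the test (7.91 ± 0.367 FPKM, adjusted p = 0.0777). The same annotation has a long non-coding gene, Gm16724, along the whole of Lpin2 on the same strand, which the files do not list. Its reads could be counted with Lpin2.

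The most abundant lipin transcript differed between the groups. Per length, Lpin3 was the largest share in control cells at day 7, at 61.8% ± 0.522 of the summed lipin FPKM, and Lpin1 was the smallest, at 14.5% ± 0.678. With full-length NFIA Lpin1 made up 75.2% ± 1.84 and Lpin3 15.3% ± 1.30, and after forskolin Lpin1 reached 81.3% ± 1.69 (SD, n = 3). With the mutant Lpin1 was at 27.9% ± 5.82 and Lpin3 at 45.2% ± 4.90 (SD, n = 3) at day 7. The sum of the 3 lipins was 38.2 ± 1.45 FPKM in control cells, 63.1 ± 1.93 FPKM with full-length NFIA and 29.4 ± 0.793 FPKM with the mutant (SD, n = 3), so the sum differed less than the share of Lpin1.

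**Figure D2:**
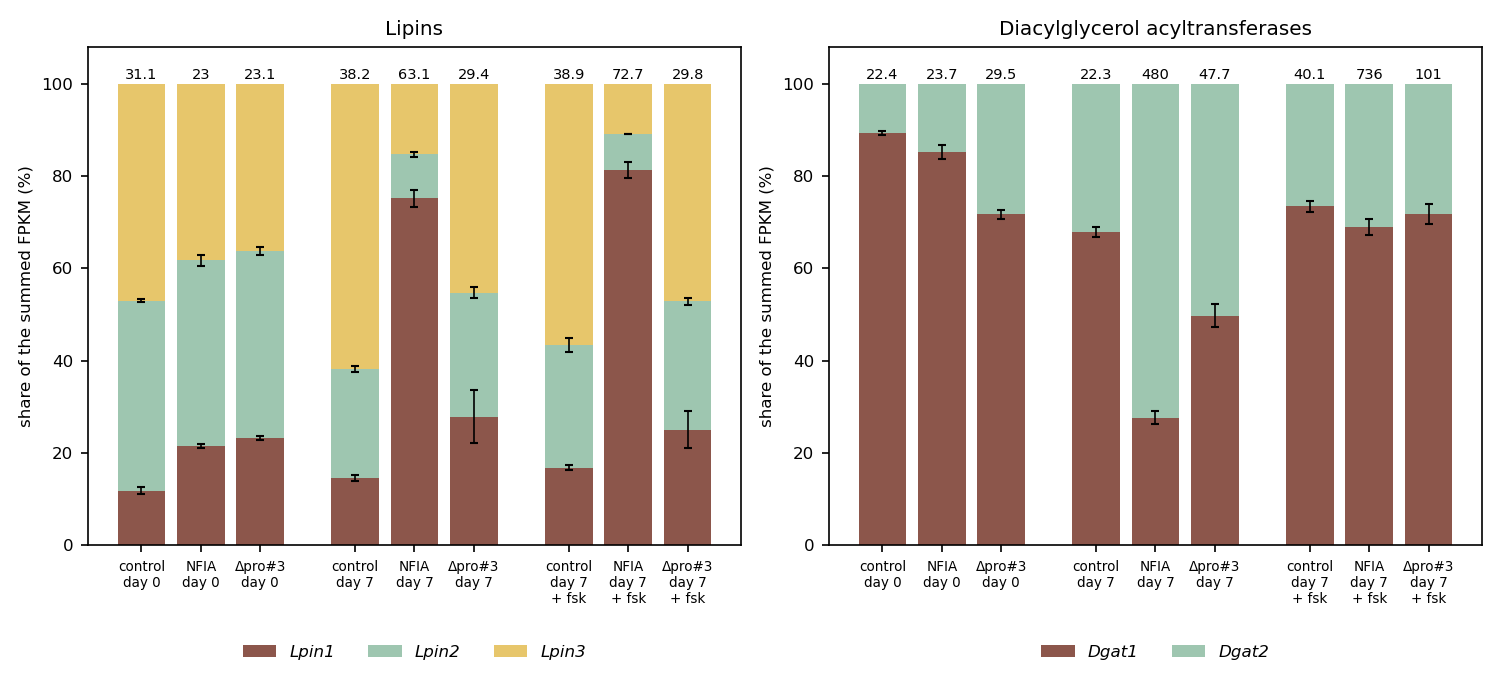
Share of each gene in the summed FPKM of its family (vertical axis, percent), as the mean of 3 replicates for each of the 9 groups, for the 3 lipins (left) and the 2 diacylglycerol acyltransferases (right). Error bars are the SD of the share of the segment beneath each bar, and the number above each column is the mean summed FPKM. Lpin1 takes 75.2% and 81.3% of lipin transcripts in the full-length NFIA groups of day 7, and Dgat2 takes 72.4% of the acyltransferase transcripts in full-length NFIA-expressing cells and 50.3% in mutant cells at day 7 without forskolin, against 10.7% to 32.1% in the other 7 groups.

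The diacylglycerol acyltransferases, 2 enzymes without sequence relation that catalyze the same last step, were both called higher with full-length NFIA. Dgat1 (chromosome 15 from 76332445 to 76342381, reverse strand) was at 14.4, 15.4 and 15.7 FPKM in control cells at day 7, at 129, 132 and 136 FPKM with full-length NFIA and at 28.1, 21.0 and 21.6 FPKM with the mutant. Its change was 8.24-fold with full-length NFIA (log2 3.04 ± 0.10, adjusted p = 1.57e-09) and 1.51-fold with the mutant (log2 0.59, adjusted p = 0.000656, and 0.46 without mutant replicate 1). Dgat2 (chromosome 7 from 106302173 to 106331223, reverse strand) changed more, from 7.20, 7.10 and 7.20 FPKM in control cells to 352, 362 and 329 FPKM with full-length NFIA, or 42.7-fold (log2 5.42 ± 0.13, adjusted p = 3.25e-10). With the mutant it was at 30.9, 21.8 and 19.5 FPKM, 3.02-fold above control (log2 1.59 ± 0.13, adjusted p = 1.04e-05), above every control sample and below every full-length NFIA sample. Without mutant replicate 1 its log2 change was 1.41, under the 3-fold threshold but still past the test (adjusted p = 5.63e-07). Dgat2 was also higher with the mutant before induction. At day 0 it had 8.58, 8.33 and 8.12 FPKM with the mutant, 3.38, 3.80 and 3.30 FPKM with full-length NFIA and 2.43, 2.41 and 2.35 FPKM in control cells. The 3 groups did not overlap, and the mutant level was 2.75-fold above control (adjusted p = 1.64e-09) and 2.08-fold above full-length NFIA (adjusted p = 1.86e-08). The share of Dgat2 in the summed FPKM of both genes was 10.7% ± 0.441 in control cells and 28.3% ± 0.935 with the mutant at day 0, and 32.1% ± 1.08 in control cells, 50.3% ± 2.5 with the mutant and 72.4% ± 1.42 with full-length NFIA at day 7 (SD, n = 3).

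Gpd1, the cytosolic glycerol-3-phosphate dehydrogenase that turns the glycolytic intermediate dihydroxyacetone phosphate into glycerol-3-phosphate (chromosome 15 from 99547946 to 99555436, forward strand), was the most abundant member in full-length NFIA-expressing cells at day 7, with and without forskolin, but not in control cells. At day 7 it was at 879, 920 and 865 FPKM with full-length NFIA, at 12.7, 14.2 and 13.1 FPKM in control cells and at 70.6, 32.6 and 34.3 FPKM with the mutant, with no overlap between groups. This was a 62.2-fold change with full-length NFIA (log2 5.96 ± 0.23, adjusted p = 6.46e-09) and a 3.08-fold change with the mutant (log2 1.62 ± 0.23, adjusted p = 0.000301). Without mutant replicate 1 the latter was 1.27 on the log2 scale (adjusted p = 7.74e-07) and no longer called. Gpd1 was already apart at day 0, at a low level: 17, 26 and 13 fragments stood behind 0.257, 0.343 and 0.179 FPKM in control cells, against 2.31, 2.28 and 2.54 FPKM with full-length NFIA and 1.82, 1.34 and 1.70 FPKM with the mutant. Both constructs were higher than control at day 0 (2.68-fold, adjusted p = 3.99e-08, and 2.08-fold, adjusted p = 9.26e-07), and Gpd1 passed the filter on low values there only through these groups. A pseudocount of 0.1 gave log2 changes of 2.81 and 2.27, past the 3-fold threshold. The annotation has a non-coding gene, Gm16537, over 6960 bases of Gpd1 on the opposite strand.

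Pck1, the cytosolic form of phosphoenolpyruvate carboxykinase, the key enzyme of glyceroneogenesis (chromosome 2 from 172978549 to 172984774, forward strand), was without a single fragment in all 9 samples of day 0. The limit of 3 fragments that a count of 0 allows is 0.0421 to 0.120 FPKM over the samples. At day 7 control cells had 1, 0 and 0 fragments, full-length NFIA-expressing cells had 57.6, 62.4 and 61.2 FPKM (6631 fragments in all), and mutant cells had 1.28, 0.139 and 0.216 FPKM (38, 8 and 10 fragments). Relative to depth, full-length NFIA-expressing cells held 145 times the Pck1 fragments of mutant cells (exact 95% counting interval 112 to 192) and 6981 times those of control cells (interval 1253 to 275787, resting on 1 control fragment). Single libraries set these ratios: the former was 351 without mutant replicate 1 and 96.4 without mutant replicate 2, and the latter 4298 without control replicate 2 and at least 1517 without control replicate 1. From day 0 to day 7 Pck1 rose at least 3305-fold with full-length NFIA, against a limit of 3 fragments over the 3 day 0 samples. Of the 56 mutant fragments at day 7, 38 were in replicate 1, the sample with the highest adipocyte markers. Relative to depth, mutant cells held 48.1 times the Pck1 fragments of control cells (exact 95% counting interval 8.29 to 1934, resting on 1 control fragment). The samples of these groups did not overlap. On the log2(FPKM + 1) scale, on which the change of low genes appears smaller, the mutant differed from control by 0.54 ± 0.21 (adjusted p = 0.0576).

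Aqp7, the aquaglyceroporin of the adipocyte membrane (chromosome 4 from 40980107 to 40995172, reverse strand), followed the same pattern at a lower level. It had 0, 1 or 2 fragments per sample in control cells and at day 0 throughout, and 98, 259 and 111 fragments (4.06, 4.98 and 3.85 FPKM) with full-length NFIA at day 7. The mutant samples had 14, 6 and 1 fragments (0.490, 0.108 and 0.0224 FPKM) and overlapped the control samples. Relative to depth, full-length NFIA-expressing cells held 164 times the Aqp7 fragments of control cells (exact 95% counting interval 55.9 to 799, resting on 3 control fragments) and 27.3 times those of mutant cells (interval 17.7 to 44.5). The former was 303 without control replicate 2, and the latter 63.7 without mutant replicate 1, which held 14 of the 21 mutant fragments. These intervals cover counting error only. Both Pck1 and Aqp7 passed the filter of a mean of 0.5 FPKM only through the full-length NFIA samples, so they had to differ, and they were not tested at day 0.

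Before induction none of the 8 members tested was called in any of the 3 comparisons of constructs by limma, where 5.24% of all genes were called with full-length NFIA against control, 2.18% with the mutant against control and 2.05% between both constructs. At an unadjusted p under 0.05 there were 7, 7 and 3 members, and the same genes passed the adjustment, where 73.3%, 62.2% and 65.3% of all genes did. By limma-voom on fragments 1, 2 and 0 members were called, where 9.34%, 5.13% and 4.85% of all genes were. With full-length NFIA, Agpat2 was 1.23-fold and Lpin1 1.27-fold higher than in control cells, and Lpin2 was 1.35-fold and Lpin3 1.60-fold lower. With the mutant, compared with the same control samples, Agpat2 was 1.28-fold and Lpin1 1.36-fold higher, and Lpin2 was 1.33-fold and Lpin3 1.67-fold lower. The comparison of the mutant with full-length NFIA was past the test for Gpam (1.53-fold lower with the mutant), Gpd1 (1.29-fold lower) and Dgat2 (2.08-fold higher). Cell type markers differed between the same groups. The 8 myotube markers summed to 1363 to 1452 FPKM in control cells, 117 to 126 FPKM with full-length NFIA and 361 to 373 FPKM with the mutant, with 8 and 7 of them called lower than in control cells. The adipocyte markers summed to 32.2 to 39.5, 378 to 409 and 293 to 312 FPKM in the same order. Only 2 of these 8 passed the filter on low values at day 0. Both were called higher than in control cells with either construct, where 5.24% and 2.18% of all genes were called in either direction. The part of these cell types in the day 0 levels of the members was not tested.

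At day 7, full-length NFIA against control gave 7 members called higher (Agpat2, Lpin1, Dgat1, Dgat2, Gpd1, Pck1 and Aqp7), where 4.87% of all genes were called higher, while Lpin2 and Lpin3 were lower by less than 3-fold. Without Pck1 and Aqp7 these were 5 of the 8 members whose mean was over 0.5 FPKM in each group. The median log2 change over the 10 members was 2.97, and -0.08 over all genes tested. The mutant against control gave 2 called higher (Dgat2 and Gpd1), where 0.933% of all genes were called higher, with a median of 0.51 over the members and -0.04 over all genes. Neither remained called without mutant replicate 1, and limma-voom called 3, where it called 3.89% of all genes in either direction. At an adjusted p-value alone, 5 members were higher with the mutant (Agpat2, Lpin1, Dgat1, Dgat2 and Gpd1), where 21.3% of all genes were higher, and 2 were lower (Gpam and Lpin3), where 27.5% were lower. The direct comparison of the mutant with full-length NFIA gave 7 called lower (Agpat2, Lpin1, Dgat1, Dgat2, Gpd1, Pck1 and Aqp7), where 3.7% of all genes were called lower. Among the 5 of these detected in every sample the change ran from 5.32-fold for Lpin1 to 20.2-fold for Gpd1. Gpam was 2.15-fold lower with the mutant (adjusted p = 4.65e-08), whereas Lpin2 and Lpin3 were 1.27-fold and 1.34-fold higher.

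**Figure D3:**
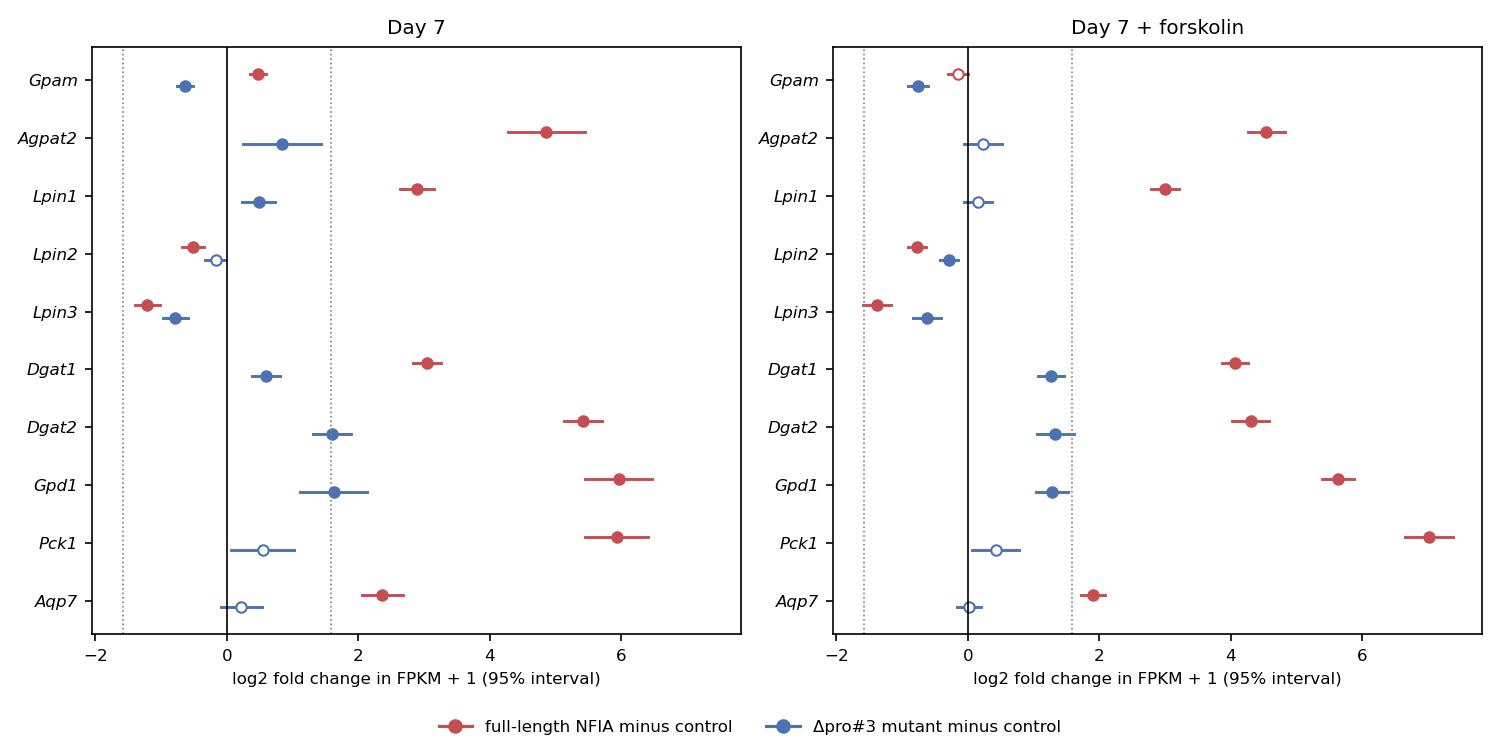
Log2 fold change in FPKM + 1 against control cells (horizontal axis) of each of the 10 genes for full-length NFIA and for Δpro#3, at day 7 (left) and at day 7 with forskolin (right). Points are limma estimates from 3 replicates per group, lines are 95% intervals, filled points have an adjusted p-value under 0.05, and dotted lines mark a 3-fold change. Full-length NFIA passes the 3-fold line for 7 genes in both panels, and the mutant only for Dgat2 (1.59) and Gpd1 (1.62), at day 7.

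After forskolin, the comparison of full-length NFIA with control again gave 7 members called higher, where 4.25% of all genes were called higher, and they were the 7 genes of day 7. Of these, Pck1 and Aqp7 had to differ, here and between the constructs, since they passed the filter only through full-length NFIA samples. The mutant against control gave none by limma, where 1.55% of all genes were called, with 7 members at an unadjusted p under 0.05, 6 after adjustment (46.6% of all genes) and 1 called by limma-voom (3.84% of all genes). Dgat1 (2.40-fold, adjusted p = 1.66e-06), Dgat2 (2.52-fold, adjusted p = 1.59e-05) and Gpd1 (2.44-fold, adjusted p = 6.33e-06) were higher with the mutant than in control cells, and without forskolin-treated mutant replicate 1 the log2 changes of Dgat1 and Dgat2 were 1.17 and 1.16, and Gpd1 stayed past the test (adjusted p = 1.96e-05). Agpat2 and Lpin1, higher with the mutant without forskolin, overlapped the control samples here (adjusted p = 0.165 and 0.213). Scaling each sample by its median ratio shifted the median of all genes by 0.17 (log2) in the comparison of full-length NFIA with control after forskolin, and by -0.12 in that of the mutant with full-length NFIA. The 7 calls of the former held under it, at log2 changes of 1.98 (Aqp7) to 7.12 (Pck1). In the latter comparison 7 members were called lower, where 3.31% of all genes were, with and without the scaling.

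Differentiation was read as day 7 minus day 0 within each kind of cell. In control cells, which received the same adipogenic mixture, 1 member was called higher (Gpd1, 11.4-fold on the FPKM + 1 scale, from 0.260 ± 0.0820 to 13.3 ± 0.775 FPKM, SD, n = 3, adjusted p = 2.68e-11), where 3.65% of all genes were called higher. Gpam (2.38-fold) and Dgat2 (2.40-fold) rose without reaching the threshold, and Dgat1 fell 1.30-fold (adjusted p = 0.000401). With the mutant Gpd1 was likewise the only member called by limma, where 3.91% of all genes were called higher. It rose 16.8-fold on the FPKM + 1 scale (adjusted p = 4.22e-12), from 1.62 ± 0.248 to 45.9 ± 21.4 FPKM (SD, n = 3). The folds of 11.4 and 16.8 do not rank both rises, as 1 FPKM was added to a control level of 0.260 FPKM. Limma-voom called 3 members, where it called 12.4% of all genes in either direction. Pck1 went from 0 to 56 fragments, at least 26.5-fold against a limit of 3 fragments. With full-length NFIA 7 members were called higher, where 5.38% of all genes were, and Gpd1 rose from 2.38 ± 0.141 to 888 ± 28.4 FPKM (SD, n = 3), or 263-fold on the FPKM + 1 scale, and Dgat2 rose 77.7-fold. Among these 7, Pck1 and Aqp7 had to differ, since they passed the filter only through full-length NFIA samples of day 7. Lpin2 fell in all 3 kinds of cells (1.38-fold in control cells, 1.46-fold with full-length NFIA and 1.17-fold with the mutant). Median-ratio scaling shifted the median of all genes by 0.14 with full-length NFIA and by 0.12 with the mutant, and the fall of Lpin2 with the mutant did not pass the test under it (log2 -0.11, adjusted p = 0.0877).

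The difference of these responses between kinds of cells was tested as an interaction. Against control cells, full-length NFIA gave 7 members called with a larger rise, where 4.53% of all genes were, with Pck1 (5.93), Dgat2 (5.01), Agpat2 (4.56), Gpd1 (4.53), Dgat1 (3.03), Lpin1 (2.54) and Aqp7 (2.36) on the log2(FPKM + 1) scale. Those of Pck1 and Aqp7 were bound to differ, as both passed the filter only through full-length NFIA samples. The value of Gpd1 rests on its low level in control cells at day 0, and was 3.24 with a pseudocount of 0.1 and 2.88 by limma-voom. Lpin3 rose in control cells (log2 0.65, adjusted p = 1.05e-07), and its change with full-length NFIA did not pass the test (0.12, adjusted p = 0.121). The difference was -0.54 ± 0.09 (adjusted p = 7.96e-05). For the mutant against control none was called by limma, where 2.36% of all genes were called, with 5 members at an unadjusted p under 0.05, 3 after adjustment (44.7% of all genes) and 1 called by limma-voom (5.43% of all genes). The 3 were Dgat1 (0.51 ± 0.11, adjusted p = 0.00152), Gpam (-0.33 ± 0.06, adjusted p = 0.000421) and Lpin2 (0.24 ± 0.08, adjusted p = 0.0254). For Dgat2 the difference was 0.13 (95% interval -0.18 to 0.45, adjusted p = 0.494), so the excess of Dgat2 in mutant cells over control cells at day 0 and at day 7 was not shown to differ in size. For Gpd1 it was 0.57 (interval 0.0043 to 1.13, adjusted p = 0.0946). Neither had a stable direction: with a pseudocount of 0.1 they were -0.05 for Dgat2 (adjusted p = 0.827) and -0.59 for Gpd1 (adjusted p = 0.139), and by limma-voom -0.11 (adjusted p = 0.703) and -0.98 (adjusted p = 0.311). The mutant against full-length NFIA gave 7 members called with a smaller rise, where 3.2% of all genes were, Pck1 and Aqp7 again among them.

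Forskolin for 4 h did not move the members all in the same direction. Dgat1 was the one member that rose in all 3 kinds of cells. It went from 14.4, 15.4 and 15.7 to 29.1, 31.6 and 27.7 FPKM in control cells, from 129, 132 and 136 to 546, 471 and 506 FPKM with full-length NFIA, and from 28.1, 21.0 and 21.6 to 82.3, 66.1 and 68.8 FPKM with the mutant. No treated sample overlapped an untreated one of its kind. The rise was 1.88-fold in control cells (adjusted p = 4.09e-06), 3.81-fold with full-length NFIA (adjusted p = 2.06e-10) and 3.00-fold with the mutant (log2 1.58 ± 0.10, adjusted p = 3.44e-09), the last a little short of the threshold and past it, at a log2 of 1.71, without mutant replicate 1 of the untreated group. Tested as an interaction, the rise of Dgat1 was larger than in control cells with full-length NFIA (log2 difference 1.02 ± 0.14, adjusted p = 4.21e-05) and with the mutant (0.67 ± 0.14, adjusted p = 0.00874), and the difference between both constructs did not pass the test (-0.35, 95% interval -0.64 to -0.06, adjusted p = 0.0851).

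Dgat2 moved against Dgat1 in full-length NFIA-expressing cells. It fell 1.52-fold there with forskolin, from 352, 362 and 329 to 227, 229 and 228 FPKM (adjusted p = 0.00174), with no overlap, while in control cells it rose 1.42-fold, from 7.20, 7.10 and 7.20 to 10.5, 12.1 and 9.43 FPKM (adjusted p = 0.0169). Without forskolin-treated control replicate 2 the rise in control cells had an adjusted p = 0.0845. In mutant cells the change was 0.25 on the log2 scale and did not pass the test (adjusted p = 0.189). The response with full-length NFIA differed from that of control cells by -1.12 ± 0.20 (adjusted p = 0.00056) and that of mutant cells differed from full-length NFIA by 0.85 ± 0.20 (adjusted p = 0.00616). With these changes the share of Dgat2 in both acyltransferases went from 72.4% to 31.0% ± 1.66 (SD, n = 3) with full-length NFIA, and the summed FPKM from 480 ± 14.8 to 736 ± 37.1 (SD, n = 3).

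Pck1 rose 2.15-fold with forskolin in full-length NFIA-expressing cells, from 57.6, 62.4 and 61.2 to 123, 135 and 134 FPKM (adjusted p = 0.000276). In mutant cells it was at 0.904, 0.0908 and 0.241 FPKM with forskolin, which overlapped the untreated samples, and control cells had 3, 1 and 0 fragments. The difference in response between full-length NFIA and control was 1.08 ± 0.29 (adjusted p = 0.0105), but control and mutant cells are at the floor of this scale: with a pseudocount of 0.1 it had an adjusted p = 0.394 and by limma-voom 0.89. Gpam fell 1.56-fold with full-length NFIA (from 43.4 ± 1.68 to 27.6 ± 2.44 FPKM, SD, n = 3, adjusted p = 2.73e-07). This response of Gpam differed from control cells (-0.62 ± 0.09, adjusted p = 5.95e-05) and from mutant cells (0.50 ± 0.09 for mutant minus full-length NFIA, adjusted p = 0.000658). After forskolin Gpam was no longer higher with full-length NFIA than in control cells (-0.15, 95% interval -0.30 to 0.01, adjusted p = 0.0782).

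Smaller changes with forskolin in full-length NFIA-expressing cells were a rise of Lpin1 (1.24-fold, adjusted p = 0.0268) and falls of Aqp7 (adjusted p = 0.00179, to 0.615 of its untreated fragments relative to depth, exact 95% counting interval 0.533 to 0.710), Gpd1 (1.47-fold, adjusted p = 0.0241) and Lpin3 (log2 -0.27, adjusted p = 0.0276). The median of all genes also fell, by 0.15 on the log2 scale, and median-ratio scaling shifted it by 0.13. Under this scaling Gpd1 (-0.42, adjusted p = 0.0903) and Lpin3 (-0.14, adjusted p = 0.229) did not pass the test, while Gpam was at -0.51, Dgat2 at -0.47, Aqp7 at -0.39, Lpin1 at 0.45, Pck1 at 1.24 and Dgat1 at 2.07, all past it. In mutant cells Agpat2 (1.53-fold lower, adjusted p = 0.0446) and Gpd1 (1.48-fold lower, adjusted p = 0.0329) fell, with log2 changes that went from -0.61 to -0.21 and from -0.57 to -0.22 without untreated mutant replicate 1 and then did not pass the test. That setting kept replicate 1 in the treated group, where it was also the highest for both genes. Without forskolin, replicates 1, 2 and 3 had 66.7, 27.8 and 28.2 FPKM of Agpat2 and 70.6, 32.6 and 34.3 FPKM of Gpd1. With forskolin they had 31.5, 20.5 and 21.7 FPKM of Agpat2 and 32.3, 24.0 and 30.3 FPKM of Gpd1. Of the 8 adipocyte markers, 7 were lower at adjusted p with forskolin in mutant cells, where 23.9% of all genes were, and 1, Lpl, was higher, where 11.9% were. The sum of the 8 went from 617 to 2044 FPKM without forskolin to 541 to 906 FPKM with it. The part of this in both falls was not tested.

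By the rule with the 3-fold threshold, forskolin gave 1 member called higher with full-length NFIA (Dgat1), where 0.596% of all genes were called higher. It gave none in control cells (0.392% of all genes called) and none in mutant cells (0.588%) by limma. At an unadjusted p under 0.05 there were 3 members in control and 4 in mutant cells, counts that were not set against a share of all genes. After adjustment 1 member was higher in mutant cells, where 11.9% of all genes were, and 2 were lower, where 23.9% were. Limma-voom called 0 and 2 members in control and mutant cells, where 0.906% and 1.51% of all genes were. No difference in response was called by limma, where 0.572%, 0.212% and 0.367% of all genes were for full-length NFIA against control, mutant against control and mutant against full-length NFIA. At an unadjusted p under 0.05 there were 6, 1 and 6 members, and limma-voom called none, where 1.27%, 0.384% and 0.874% of all genes were. At an adjusted p-value alone they were 6, 1 and 3 members, where 30.6%, 4.97% and 21.7% of all genes were.

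**Figure D4:**
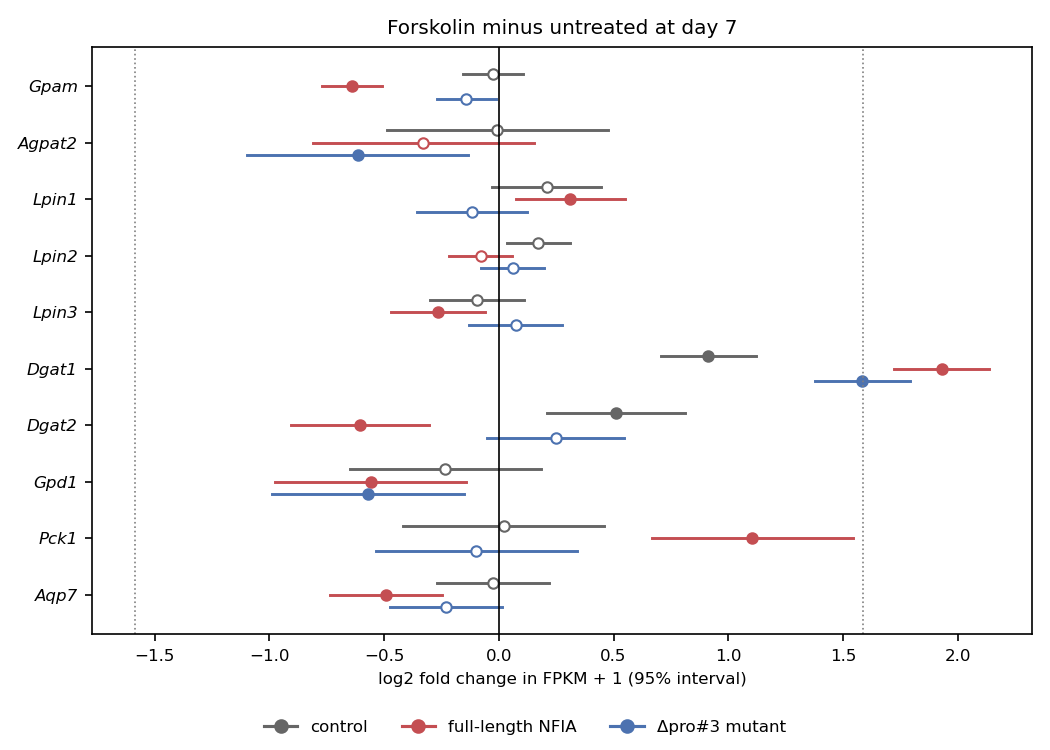
Log2 fold change in FPKM + 1 with forskolin at day 7 (horizontal axis) of each of the 10 genes in each kind of cell (control vector, full-length NFIA, Δpro#3). Points are limma estimates from 3 replicates per group, lines are 95% intervals, filled points have an adjusted p-value under 0.05, and dotted lines mark a 3-fold change. Dgat1 lies to the right in all 3 kinds of cells (0.91, 1.93 and 1.58), whereas Dgat2 lies to the left with full-length NFIA (-0.61) and to the right in control cells (0.51).

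The rest of the pathway was read from lists written by hand. With full-length NFIA against control at day 7, 4.87% of all genes were called higher. Of 9 other acyltransferases, 1 was (Gpat3, from 3.86 to 43.9 FPKM, adjusted p = 1.87e-08). Of 8 other genes of glycerol supply, 1 was called (Pcx, the pyruvate carboxylase that provides oxaloacetate to PEPCK, from 22.6 to 232 FPKM, adjusted p = 8.5e-09). Glycerol kinase, Gk, was higher at a low level (2.85 against 1.77 FPKM, adjusted p = 0.00225), and the mitochondrial Gpd2 was lower (7.85 against 11.9 FPKM, adjusted p = 0.000149). Of 5 genes of fatty acid activation, Acsl1, the main acyl-CoA synthetase of adipocytes, was called higher (from 31.3 to 216 FPKM, adjusted p = 1.16e-06) and Acsl6 was called lower (from 15.8 to 1.77 FPKM, adjusted p = 1.42e-08), where 3.3% of all genes were called lower. Of 7 genes of the branch from diacylglycerol and phosphatidate to phospholipid, Chpt1 (from 17.1 to 66.3 FPKM) and Pcyt2 (from 14.0 to 46.9 FPKM) were called higher. The 5 genes of lipin regulation and triglyceride packing were not called, with Fitm2, which partitions triglyceride into droplets, at 69.6 against 23.9 FPKM and Bscl2 (seipin) at 6.75 against 2.33 FPKM, both higher, and Fitm1, the form of skeletal muscle, lower (0.246 against 2.52 FPKM, adjusted p = 2.41e-05), a change that stayed under 3-fold only with 1 FPKM added.

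Of 6 transcription regulators, Srebf1 (from 11.7 to 136 FPKM), Cebpa (from 8.63 to 89.0 FPKM) and Pparg (from 5.95 to 39.5 FPKM) were called higher with full-length NFIA at day 7 (4.87% of all genes), and Cebpb did not pass the test (24.4 against 22.2 FPKM, adjusted p = 0.6). With the mutant against control at day 7, 6 genes of these 6 lists (36 of 40 tested) were higher, where 21.3% of all genes were, and 13 lower, where 27.5% were, each by less than 3-fold on the FPKM + 1 scale. Against full-length NFIA the mutant was called lower for 9 of them (3.7% of all genes), among them Gpat3 (3.78 FPKM), Pcx (29.6 FPKM) and Srebf1 (14.4 FPKM), and called higher for Acsl6 (16.8 FPKM), where 2.6% of all genes were called higher. With forskolin, 1 of the 35 list genes tested was called in full-length NFIA-expressing cells, where 0.596% of all genes were called higher. This was Acsl4, named after its values were seen, from 19.3 to 72.3 FPKM (log2 1.85 ± 0.12, adjusted p = 2.15e-09).

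Gpd1 had the widest range over the groups, and the genes whose group means followed it most closely were sought among 11573 genes with a mean of 1 FPKM or more. They were Mdh1, the cytosolic malate dehydrogenase, with a Pearson r of 0.997 over the 9 group means, Amy1, an amylase (r = 0.996), and P2rx3, an ATP-gated channel (r = 0.994). Mdh1 rose from 72.3 ± 2.55 FPKM in control cells at day 0 to 166 ± 7.03 FPKM at day 7, and was at 509 ± 29.9 FPKM with full-length NFIA and 213 ± 17.6 FPKM with the mutant at day 7 (SD, n = 3). These correlations describe 9 means that share their libraries.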

How the data were processed

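Total RNA of 27 C2C12 samples had been made into poly(A)-selected, stranded, paired-end libraries. Per the study's methods, the authors aligned reads to mouse genome build mm9 with STAR 2.5.3a, kept unique alignments, counted the fragments of each gene by strand and turned them into FPKM. A further scaling of these FPKM between samples is not described there, and the gene annotation is not given in the sources used here. Positions and overlaps come from an mm9 annotation and upstream windows from RefSeq (GRCm38.p6), matched by symbol. The members and lists were chosen with earlier results of these data known. Genes with a mean of 0.5 FPKM or more in the samples of a fit were tested with limma 3.58.1 (R 4.3.3) on log2(FPKM + 1), 2-sided, with p-values adjusted by Benjamini-Hochberg over all genes tested. Each time point had its own fit of 3 groups, and differentiation and forskolin each had 1 fit of 6 groups. A call also needed a change above 3-fold.

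FPKM values were whole multiples of 1 fragment, within 0.05 fragments, for 100% of values, so fragments were recovered and also tested with limma-voom. Counting intervals are exact at 95%, and they and the floor of 3 fragments cover counting error only. The test was checked on simulated data. All 10 members were described. From the lists of other pathway genes, those called at day 7 were named by rule, whereas Gk, Gpd2, Fitm1, Fitm2, Bscl2, Cebpb and Acsl4 were named after their values were seen. The windows printed were likewise chosen after the values were seen. Alternatives were a pseudocount of 0.1, median-ratio scaling, no filter or a mean of 5 FPKM, no variance trend, a replicate block, limma-voom, only the groups compared, and each replicate left out, and, chosen after seeing the data, mutant replicate 1 left out at every time, each replicate left out of the ratios of Pck1 and Aqp7 fragments, and the share of Agpat2 per replicate.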

Additional observations from a re-analysis of the deposited data

Results flagged for a closer look

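The members below are listed because the response of 1 kind of cell differed from that of another in the interaction test of limma (adjusted p under 0.05), with differences on the log2(FPKM + 1) scale. For day 7 minus day 0, full-length NFIA minus control, the differences were 5.93 for Pck1, 5.01 for Dgat2, 4.56 for Agpat2, 4.53 for Gpd1 (2.88 by limma-voom, with control cells at 0.260 FPKM at day 0), 3.03 for Dgat1, 2.54 for Lpin1, 2.36 for Aqp7, 0.17 for Gpam and -0.54 for Lpin3. For the mutant minus control they were 0.51 for Dgat1, 0.24 for Lpin2 and -0.33 for Gpam. For the mutant minus full-length NFIA they were -5.38 for Pck1, -4.88 for Dgat2, -4.08 for Agpat2, -3.97 for Gpd1, -2.51 for Dgat1, -2.51 for Lpin1, -2.16 for Aqp7, -0.50 for Gpam, 0.49 for Lpin3 and 0.33 for Lpin2. Pck1 and Aqp7 passed the filter only through full-length NFIA samples, so their differences from these cells were bound to appear.

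For forskolin minus untreated, full-length NFIA minus control, the differences were 1.08 for Pck1, 1.02 for Dgat1, -0.25 for Lpin2, -0.47 for Aqp7, -0.62 for Gpam and -1.12 for Dgat2. For the mutant minus control the difference was 0.67 for Dgat1. For the mutant minus full-length NFIA the differences were 0.85 for Dgat2, 0.50 for Gpam and -1.20 for Pck1. Those of Pck1 and Aqp7 set full-length NFIA against cells at or near 0 fragments. That of Aqp7 turned to 0.39 by limma-voom (adjusted p = 0.827) and did not pass the test with a pseudocount of 0.1 (adjusted p = 0.638) or median-ratio scaling (adjusted p = 0.111). That of Lpin2 did not pass it with median-ratio scaling (adjusted p = 0.146) or a replicate block (adjusted p = 0.0537).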

How the results depend on the processing

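Counts of members called changed in few settings. With a pseudocount of 0.1 full-length NFIA against control at day 0 had 1 call (Gpd1), the mutant against control 2 at day 0 and 1 after forskolin, day 7 minus day 0 2 in mutant cells and 1 for the mutant minus control, and forskolin 1 in mutant cells, where the main counts were 0, 0, 0, 1, 0 and 0. By limma-voom the same 6 counts were 1, 2, 1, 3, 1 and 2. With either setting the mutant against control at day 7 had 3 calls in place of 2. Over all genes limma-voom called more than the main test in each comparison, at day 7 1640 against 1007 for full-length NFIA against control, 479 against 177 for the mutant against control and 1265 against 776 for the mutant against full-length NFIA. Forskolin in mutant cells also had 1 call (Dgat1) with median-ratio scaling and with mutant replicate 1 left out at every time. Leaving out 1 replicate gave 0 to 2 calls for the mutant against control at day 7 and 0 to 1 for forskolin in mutant cells, where the call of Dgat1 appeared without untreated mutant replicate 1 (1.71) or without forskolin-treated mutant replicate 2 (1.65) or 3 (1.62). The other counts did not change under any of the single replicates left out, and no count changed without the filter, without the variance trend or with only the groups compared. At a mean of 5 FPKM Aqp7 could not be tested, and each count of 7 was 6. The forskolin response of Aqp7 with full-length NFIA minus that of control cells reversed by limma-voom (0.39, adjusted p = 0.827). The difference of the Pck1 response between the mutant and full-length NFIA had an adjusted p = 0.24 with a pseudocount of 0.1 and 0.195 by limma-voom. Replicate numbers are shared between groups, and the labels do not say what a number stands for. Not every same-numbered pair correlated over 0.1, so they were not taken as pairs: deviations of same-numbered samples had a mean correlation of 0.0139 at day 0, -0.0314 at day 7 and -0.00195 after forskolin. Over the 6 groups of day 7 with and without forskolin, 12 of 45 same-numbered pairs were over 0.1, the highest at 0.358. With a replicate block all 21 counts were the same, for example 7 for full-length NFIA against control at day 7, and of 139 single-gene results 138 kept their side of the test, the exception being the forskolin response of Lpin2 with full-length NFIA minus that of control cells (-0.25, adjusted p = 0.0537). Depth limits Pck1 and Aqp7 in control and mutant cells and Gpd1 in control cells at day 0.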
